A study of Mus musculus with 9 samples.

Results

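Histone genes of mouse pancreatic tumor cells with and without Usp22 are described here. All genes of the table whose symbol starts with Hist1h, Hist2h, Hist3h or Hist4h were taken, which gave 69 genes of the replicative histone clusters. To these were added 10 genes that lie outside the clusters: H2afx, H2afy, H2afy2, H2afz, H2afv, H2afj, H3f3a, H3f3b, H1f0 and H1fx. The set held 79 genes of the 24493 in the table. By symbol, the 69 cluster genes are 6 of the linker histone H1, 19 of H2A, 19 of H2B, 12 of H3 and 13 of H4, and 2 of them, Hist1h2al and Hist3h2bb-ps, are annotated as processed pseudogenes. They lie on chromosome 13 (55 genes), chromosome 3 (10), chromosome 11 (3) and chromosome 6 (1) of the mouse build GRCm38.

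The study compared polyadenylated RNA of the tumor cell clone 6419c5, which came from late-stage pancreatic tumors on the C57BL/6 strain and was implanted under the skin of mice. There were 3 groups of 3 samples: Usp22-KOA, Usp22-KOB and WT. All of the groups share the clone, the strain and the growth as an implanted tumor, and both knockouts were made in that 1 clone. The labels do not say what sets the A and B knockouts apart, nor whether each sample came from its own mouse, so a p-value here speaks of the spread among samples that may be technical.

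Replicative histone genes are transcribed mainly in S phase, when new DNA has to be packed into nucleosomes. Their mRNAs usually end in a short stem-loop and carry no poly(A) tail, whereas variant histone genes are transcribed throughout the cell cycle and yield polyadenylated mRNA. A library of polyadenylated RNA therefore reads replicative genes only as far as tailed transcripts of them exist. Usp22 removes ubiquitin from histone H2B as the catalytic subunit of SAGA, a coactivator.

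Usp22, the targeted gene, averaged 9.44 ± 0.867 TPM in Usp22-KOA samples and 13.6 ± 1.62 TPM in Usp22-KOB samples, against 55.3 ± 0.977 TPM in WT samples (SD, n = 3 each). TPM is a length-scaled share of a library, and each library summed to 1000000. Its difference in log2(TPM + 1) was -2.196 ± 0.083 (SE) over both knockouts, with an exact permutation p of 0.0119 (two-sided), the smallest that 84 permutations allow. The read depth is unknown, because TPM keeps none, and no counting interval can be given. Libraries of 1 group correlated at 0.972 to 0.985 and libraries of different groups at 0.885 to 0.945 (Pearson's r across genes).

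The samples also differed in markers of other cell types. In a bulk sample, fewer cells of a type and less RNA per cell cannot be told apart. Beside the marker counts below, 29.4% of all genes tested were higher and 26.9% lower in Usp22-KOA than in WT. In Usp22-KOB these shares were 18.7% and 18.4%. The summed level of 6 mast cell markers spanned 1161 to 2408 TPM in Usp22-KOA samples and 91.05 to 119.99 TPM in Usp22-KOB samples, against 148 to 182 TPM in WT samples. Of these, 6 of 6 were higher in Usp22-KOA, and 3 were higher and 1 lower in Usp22-KOB. The lower one, Mcpt4, held most of the WT sum, at 146 to 177 TPM in WT and 54.9 to 56.8 TPM in Usp22-KOB samples. The 10 macrophage markers summed to 1583 to 3431 TPM in Usp22-KOA samples and 5573 to 9708 TPM in Usp22-KOB samples, against 2126 to 3228 TPM in WT samples, with 1 of 10 higher in Usp22-KOA and 10 of 10 in Usp22-KOB. The 10 fibroblast markers summed to 191 to 224 TPM in Usp22-KOA samples and 880 to 1331 TPM in Usp22-KOB samples, against 569 to 1029 TPM in WT samples, with 8 of 10 lower in Usp22-KOA and 3 of 10 higher in Usp22-KOB. Endothelial markers (10 genes) summed to 15.03 to 23.9, 54.5 to 83.9 and 68.0 to 93.8 TPM in Usp22-KOA, Usp22-KOB and WT samples, and 9 of the 9 tested were lower in Usp22-KOA. The 14 lymphocyte markers summed to 46.5 to 106.5 TPM in Usp22-KOA samples and 27.0 to 69.0 TPM in Usp22-KOB samples, against 11.3 to 20.02 TPM in WT samples, with 7 of 9 tested higher in Usp22-KOA and 6 of 9 in Usp22-KOB. The means of this sum were 77.4, 50.1 and 16.9 TPM in Usp22-KOA, Usp22-KOB and WT samples, with overlap between the knockouts. The 10 general leukocyte markers summed to 709 to 1627 TPM in Usp22-KOA samples and 1369.7 to 2800.3 TPM in Usp22-KOB samples, against 616 to 1033 TPM in WT samples, with 1 of 10 higher in Usp22-KOA and 8 of 10 in Usp22-KOB. None of these 6 lists held a gene at 0 in every library. The labelled tumor epithelium was present in all samples, with 9 epithelial markers at 6320 to 7103 TPM in Usp22-KOA, 6965 to 8530 TPM in Usp22-KOB and 8420 to 8964 TPM in WT samples. Of the 9, 7 were lower and 1 higher in Usp22-KOA, and 5 were lower in Usp22-KOB. Krt8, Krt18 and Krt19 held most of the epithelial sum, which hides larger falls of other markers. The 4 with the smallest adjusted p over both knockouts (limma) were lower in each knockout. In the order Usp22-KOA, Usp22-KOB, WT, Muc1 averaged 49.5, 139 and 603 TPM and Epcam 37.7, 31.3 and 379 TPM. Krt7 averaged 146, 652 and 905 TPM in the same order, and Cldn4 1.09, 7.79 and 42.8 TPM. The 6 acinar markers summed to 81.7 to 92.7 TPM in Usp22-KOA samples and 8.004 to 9.36 TPM in Usp22-KOB samples, against 43.4 to 52.6 TPM in WT samples. Of these, Cela2a and Ptf1a were at 0 in every library, and 2 were tested: Prss2 was higher in Usp22-KOA, with a difference of 4.405 ± 0.17 (adjusted p = 1.8e-07, limma), and Cela1 was lower in Usp22-KOA, with -0.26 ± 0.088 (adjusted p = 0.0313), and in Usp22-KOB, with -2.49 ± 0.088 (adjusted p = 5.03e-07). Whether other cell types contribute to the histone differences was not tested, beyond a fit that takes the leukocyte marker level as a covariate: it called 20 histone genes in Usp22-KOA against WT, as many as without it and 17 of them the same genes, and 6 in Usp22-KOB against WT, where 13 were called without it. The calls lost with this covariate were those of Hist1h3i, Hist1h4m and Hist2h2be in Usp22-KOA, and those of H2afj, H2afx, Hist1h1d, Hist1h2bh, Hist1h3g, Hist2h2be, Hist2h3c2 and Hist3h2a in Usp22-KOB. Over both knockouts 12 of 17 calls were kept, without those of H1f0, H3f3b, Hist1h2ac, Hist1h3g and Hist2h2be. The covariate itself, a mean log2 level, was 6.52 to 7.54 in Usp22-KOB samples and 5.45 to 6.17 in WT samples. The share of all genes called in this fit was not determined. The counts therefore do not set histone genes apart from other genes.

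Since the RNA was selected for poly(A), the 3′ ends of the genes were read first. The histone stem-loop was searched on the transcript strand as GGC, any base, CTT, any base, T, any base, AG, any base and GCC, without gaps, in 141767 GENCODE M21 transcripts. It was found in 64 of them (0.0451%). Of the 69 cluster genes 44 held it, as did 1 gene outside the clusters, H2afx. The annotated transcript went on for more than 100 bases behind the stem-loop in 22 of the 44 genes and for at most 100 bases in the other 22. A poly(A) signal, AATAAA or ATTAAA, lay within the last 40 bases of the transcript in 17 cluster genes, 13 of which held the stem-loop as well, and in 8 of the 10 genes outside the clusters. Selected cluster genes that hold the stem-loop are shown here with H2afx, with the stem-loop in capitals and 5 flanking bases on each side.
Hist1h1c: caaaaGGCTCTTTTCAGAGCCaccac
Hist2h2aa1: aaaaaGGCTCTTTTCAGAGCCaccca
Hist3h2a: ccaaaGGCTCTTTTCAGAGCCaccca
Hist3h2ba: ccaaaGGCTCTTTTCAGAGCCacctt
Hist1h4i: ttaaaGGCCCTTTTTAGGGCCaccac
Hist1h4h: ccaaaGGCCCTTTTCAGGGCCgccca
Hist2h3c1: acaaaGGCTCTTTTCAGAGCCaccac
H2afx: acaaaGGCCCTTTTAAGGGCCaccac
The 16 letters are the same in the cluster H1, H2A, H2B and H3 genes shown, and differ in the H4 genes and in H2afx. The elements lie at chr13:23739507-23739532 (Hist1h1c, plus strand), chr3:96246027-96246052 (Hist2h2aa1, plus), chr11:58955167-58955192 (Hist3h2a, plus), chr11:58949344-58949369 (Hist3h2ba, plus), chr13:22040961-22040986 (Hist1h4i, minus), chr13:23531453-23531478 (Hist1h4h, plus), chr3:96247322-96247347 (Hist2h3c1, plus) and chr9:44335235-44335260 (H2afx, plus) of GRCm38, in the 3′ UTR. The annotated transcript continues for 840 bases behind it in Hist1h1c, 1643 in Hist3h2a, 169 in Hist3h2ba, 330 in Hist1h4i, 1162 in Hist2h3c1 and 822 in H2afx, but for 35 bases in Hist2h2aa1 and 46 in Hist1h4h. Hist1h2bc, the highest cluster gene, held neither the stem-loop letters nor the signal in its annotated transcripts. Cluster genes with a signal had a median level of 5.21 TPM over the 9 samples (17 genes, 6 of them at 10 TPM or more), and those without one had 2.16 TPM (52 genes, 5 at 10 TPM or more). These medians describe a choice of annotation and were not tested.

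In sum, the cluster genes were higher in the knockouts and the genes outside the clusters were lower. Single cluster genes were mixed in Usp22-KOB. Of 51 tested, 28 had a positive and 23 a negative log2 difference from WT, with a median of 0.083. All 69 cluster genes together came to 1538, 1479.5 and 1480.04 TPM in Usp22-KOA samples and 1007, 969 and 960.1 TPM in Usp22-KOB samples, against 785, 734 and 832 TPM in WT samples. The groups did not overlap, with Usp22-KOA at 191% and Usp22-KOB at 125% of the WT mean. The 10 genes outside the clusters came to 2225, 2226 and 2105 TPM in Usp22-KOA samples and 2218, 2252 and 2364 TPM in Usp22-KOB samples, against 2527, 2592 and 2480.5 TPM in WT samples, so that both knockouts lay below every WT sample. Their share of all histone TPM was 59.3% ± 0.694 in Usp22-KOA samples and 69.9% ± 1.17 in Usp22-KOB samples, against 76.4% ± 1.52 in WT samples (SD, n = 3 each). The sum over all 79 genes was 3684 ± 90.8 TPM in Usp22-KOA samples and 3256 ± 58.8 TPM in Usp22-KOB samples, against 3317 ± 7.99 TPM in WT samples. These class sums were given no p-value.

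A few genes held most of the cluster sum. Hist1h2bc, Hist1h1c, Hist2h2aa1, Hist3h2a, Hist1h4i and Hist1h4h, the 6 highest, made up 75.2% to 81.1% of it in every sample. The other 63 genes summed to 295 ± 8.77 TPM in Usp22-KOA samples and 195 ± 9.01 TPM in Usp22-KOB samples, against 184 ± 24.5 TPM in WT samples. Their sums in Usp22-KOB samples, 185 to 202 TPM, lay within the 156 to 202 TPM of WT samples. By family, cluster H2B genes summed to 541 ± 12.8 TPM in Usp22-KOA samples and 349.6 ± 18.6 TPM in Usp22-KOB samples, against 245 ± 7.81 TPM in WT samples. Cluster H2A genes summed to 461 ± 17.998, 237 ± 33.6 and 202 ± 22.3 TPM in Usp22-KOA, Usp22-KOB and WT samples, with overlap between Usp22-KOB and WT. Cluster H3 genes were at 276% of WT in Usp22-KOA samples and 149% in Usp22-KOB, and cluster H1 genes at 145% and 128%. Hist2h3c1 held 43.0 of the 76.7 TPM of the H3 sum in Usp22-KOA samples. Hist1h1c alone made up 94.9%, 97.4% and 94.7% of the cluster H1 sum in Usp22-KOA, Usp22-KOB and WT samples. Of the 4 cluster H1 genes tested, 3 had a negative difference from WT in Usp22-KOB. Cluster H4 genes stood apart least, at 123% of WT in Usp22-KOA samples and 92.3% in Usp22-KOB. Under other scalings or without 1 sample, the H4 sum of Usp22-KOB ranged over 85.6% to 100.4% of WT, so its side of WT was not stable.

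**Figure D1:**
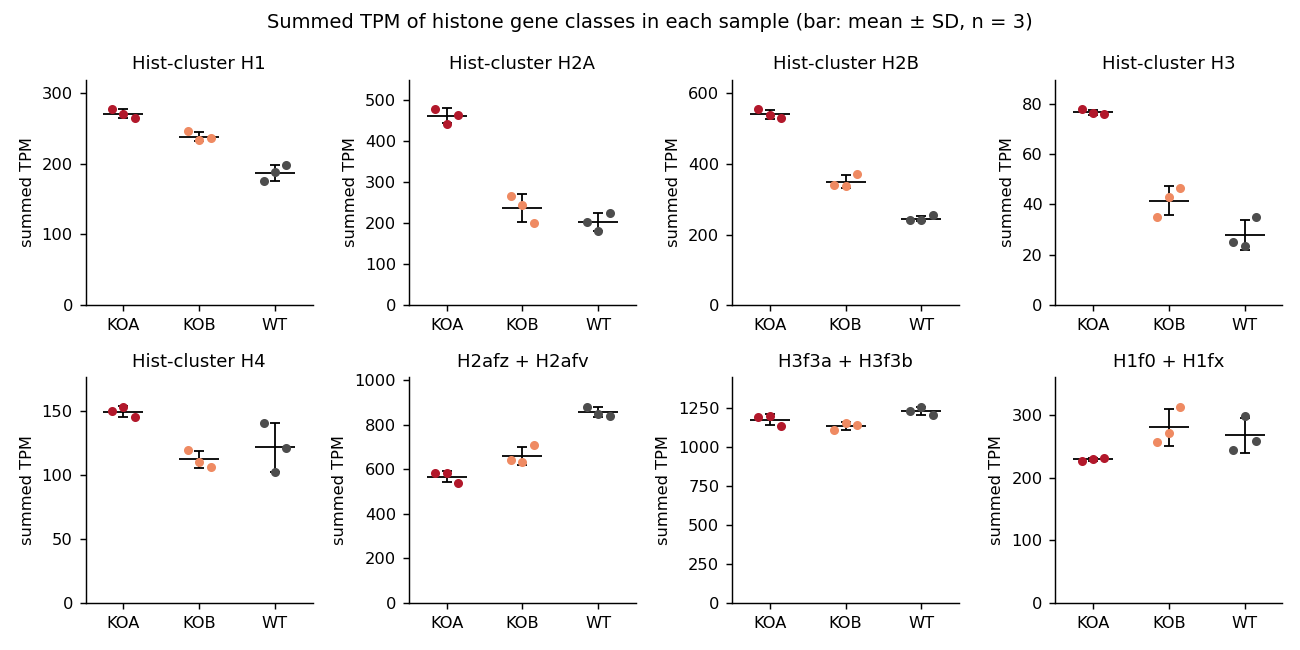
Summed TPM of histone gene classes (y axis, starting at 0) in the 3 Usp22-KOA (KOA), 3 Usp22-KOB (KOB) and 3 WT samples. Points are samples and bars are the mean ± SD. Cluster H2B sums lie at 530 to 555 TPM in Usp22-KOA samples and 338 to 371 TPM in Usp22-KOB samples, against 240.4 to 254 TPM in WT samples, while the H2afz and H2afv sum is highest in WT.

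Gene by gene, 60 of the 79 genes averaged 1 TPM or more across samples and were tested with limma on log2(TPM + 1), adjusted by Benjamini-Hochberg over all 13843 genes tested. In both knockouts against WT, 13 of the 60 were higher and 4 lower at an adjusted p under 0.05, which is 21.7% and 6.67% of them, where 25.9% of all genes tested were higher and 24.1% were lower. In Usp22-KOA against WT, 16 were higher and 4 lower, where 29.4% of all genes tested were higher and 26.9% lower. In Usp22-KOB against WT, 10 were higher and 3 lower, against 18.7% and 18.4% of all genes. Usp22-KOA against Usp22-KOB gave 13 higher and 5 lower histone genes, against 27.5% and 24.2% of all genes. The share of histone genes called higher was thus at or below that of all genes in each of the 4 comparisons, and the share called lower was below it. Median log2 differences of the 60 genes were 0.21 over both knockouts, 0.38 in Usp22-KOA, 0.065 in Usp22-KOB and 0.35 between the knockouts, beside 0.0087, 0.019, -0.0075 and 0.027 for all genes tested.

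The classes differed in direction. Of the 51 cluster genes tested, 9 were higher and none lower over both knockouts, 12 and none in the comparison of Usp22-KOA with WT, and 7 and 1 in that of Usp22-KOB. These are 17.6%, 23.5% and 13.7% higher, below the 25.9%, 29.4% and 18.7% of all genes tested. Lower were 0%, 0% and 1.96%, beside 24.1%, 26.9% and 18.4% of all genes. Genes outside the clusters moved in both directions: of 9 tested, 4 were higher and 4 lower over both knockouts and also in Usp22-KOA, and 3 were higher and 2 lower in Usp22-KOB. Calls were more frequent among cluster genes at 10 TPM or more, of which 5 of 11 were higher over both knockouts, 7 in Usp22-KOA samples and 3 in Usp22-KOB, with none lower. Of all genes at that level, 31.3%, 36.2% and 21.3% were higher in these comparisons. The level is a mean over all samples, so a gene high only in Usp22-KOA can pass it. Hist3h2ba, called in Usp22-KOA and over both knockouts, passed in this way, at 24.2, 7.04 and 4.31 TPM in Usp22-KOA, Usp22-KOB and WT samples. Hist2h3c1, not called against WT, did too, at 43.0, 6.96 and 9.48 TPM. The cut thus depends on the groups compared, and no conclusion is drawn from these shares. Among the 40 tested cluster genes under 10 TPM, 4, 5 and 4 were higher, which is 10%, 12.5% and 10% of them, where 16.2%, 17.2% and 13.9% of all tested genes at that level were higher. The comparisons with WT share the WT samples, so their counts are not independent.

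**Figure D2:**
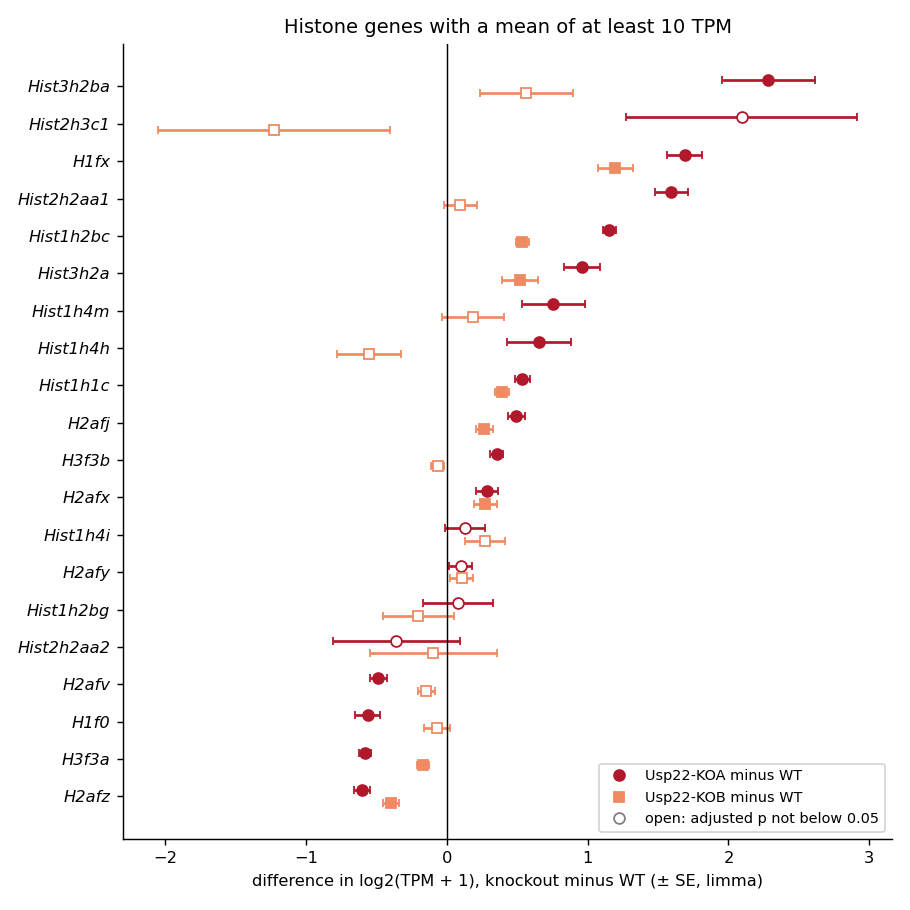
Difference in log2(TPM + 1) from WT (x axis, ± SE) of the 20 histone genes at an average of 10 TPM or more, in Usp22-KOA (circles, above) and Usp22-KOB (squares, below). Filled symbols have an adjusted p under 0.05 (limma). H1fx lies at 1.69 in Usp22-KOA samples and 1.20 in Usp22-KOB, while H2afz and H3f3a are the 2 genes lower than WT with filled symbols in both knockouts.

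H2B and H2A genes held most of the cluster sum, and several of them rose. Hist1h2bc, which encodes a canonical H2B, was at 477, 453 and 453 TPM in Usp22-KOA samples and 296, 293 and 312 TPM in Usp22-KOB samples, against 203, 203 and 215 TPM in WT samples. The groups did not overlap, and Usp22-KOA samples were highest. Its log2 difference was 1.15 ± 0.046 in Usp22-KOA (adjusted p = 1.98e-07, limma) and 0.54 ± 0.046 in Usp22-KOB (adjusted p = 5.29e-05), and 0.62 ± 0.046 between the knockouts (adjusted p = 1.05e-05). It made up 85.2% ± 0.782, 85.95% ± 1.66 and 84.4% ± 0.226 of the cluster H2B sum in Usp22-KOA, Usp22-KOB and WT samples. Its coding sequence is 99.5% identical to that of Hist1h2bq, so reads could be split between them.

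Hist1h2bc starts 250 bases from Hist1h2ac, a canonical H2A gene on the opposite strand, and the stretch between them lies before both starts. It is printed because both of these neighbours were higher in Usp22-KOA. The RefSeq promoter table (GRCm38.p6) gives 250 bases before to 50 after the start of Hist1h2ac, at chr13:23683910-23684209 on the minus strand. Capitals mark matches of 3 motifs on either strand: the CCAAT box, the TATA box and the octamer. The TATA box was searched as TATAAA. For the octamer the letters were ATTTGCAT.
Hist1h2ac: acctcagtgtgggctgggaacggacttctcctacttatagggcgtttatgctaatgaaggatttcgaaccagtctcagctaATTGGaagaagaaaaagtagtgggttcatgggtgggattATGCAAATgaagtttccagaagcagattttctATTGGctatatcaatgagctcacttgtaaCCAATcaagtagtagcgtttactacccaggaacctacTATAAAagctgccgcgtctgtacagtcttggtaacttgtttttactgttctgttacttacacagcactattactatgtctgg
Hist1h2ac was at 12.6, 5.45 and 9.19 TPM in Usp22-KOA samples and 6.09, 4.28 and 2.37 TPM in Usp22-KOB samples, against 1.49, 1.61 and 2.65 TPM in WT samples. All Usp22-KOA samples lay above WT, and Usp22-KOB samples overlapped both groups. The difference was 1.75 ± 0.33 in Usp22-KOA (adjusted p = 0.00166, limma) and 0.804 ± 0.33 in Usp22-KOB (adjusted p = 0.086, not called, but 1.09 and 0.0274 without Usp22-KOB sample 3). The 1 promoter window holds 1 TATA box, 3 CCAAT boxes and 1 octamer; such a match is a description and not a bound site.

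Hist2h2aa1, an H2A gene of the chromosome 3 cluster, separated the knockouts. It was at 316, 273 and 308 TPM in Usp22-KOA samples and 121, 112 and 85.99 TPM in Usp22-KOB samples, against 105, 92.1 and 97.96 TPM in WT samples. Usp22-KOA stood far above, and Usp22-KOB overlapped WT. Its log2 difference was 1.59 ± 0.12 in Usp22-KOA (adjusted p = 5.88e-06, limma), 0.10 ± 0.12 in Usp22-KOB (adjusted p = 0.566, or 0.0481 without Usp22-KOB sample 3, when the difference is 0.24) and 1.499 ± 0.12 between the knockouts (adjusted p = 1.45e-05). Hist2h2aa2 lies 5220 bases away on the other strand, has the same 390-base coding sequence and the same stem-loop, and held 15.8 ± 7.35, 19.3 ± 10.2 and 19.6 ± 6.62 TPM in Usp22-KOA, Usp22-KOB and WT samples without a call. Assignment of reads between such copies is uncertain. Their sum was higher by 1.41 ± 0.086 in Usp22-KOA (adjusted p = 1.7e-06) and differed by 0.087 ± 0.086 in Usp22-KOB (adjusted p = 0.46), a combination chosen after the values were seen. The promoter of Hist2h2aa1, at chr3:96245247-96245546 on the plus strand, carries 1 TATA box and 2 CCAAT boxes, and is shown for comparison with the window of Hist1h2ac.
Hist2h2aa1: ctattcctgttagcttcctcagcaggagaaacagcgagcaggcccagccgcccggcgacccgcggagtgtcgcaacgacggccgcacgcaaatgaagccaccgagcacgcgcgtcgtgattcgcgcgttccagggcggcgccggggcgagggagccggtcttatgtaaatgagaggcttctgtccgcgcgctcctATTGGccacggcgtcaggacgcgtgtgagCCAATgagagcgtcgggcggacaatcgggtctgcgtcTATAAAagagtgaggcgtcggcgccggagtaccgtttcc

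The H2A and H2B genes of the small chromosome 11 cluster, Hist3h2a and Hist3h2ba, lie 5151 bases apart on the plus strand. Hist3h2a was at 112, 111 and 107 TPM in Usp22-KOA samples and 89.5, 91.3 and 64.4 TPM in Usp22-KOB samples, against 52.3, 53.9 and 62.6 TPM in WT samples. The order of the groups was complete, although the lowest Usp22-KOB sample came close to the highest WT sample. The differences were 0.96 ± 0.13 in Usp22-KOA (adjusted p = 0.000195, limma) and 0.52 ± 0.13 in Usp22-KOB (adjusted p = 0.0123). With the leukocyte covariate the difference of Usp22-KOB was 0.27 and no longer called (adjusted p = 0.41). Hist3h2ba was at 19.1, 24.8 and 28.7 TPM in Usp22-KOA samples and 5.202, 4.71 and 11.2 TPM in Usp22-KOB samples, against 5.62, 2.43 and 4.89 TPM in WT samples. Usp22-KOA was clear of the other groups, and Usp22-KOB overlapped WT. The difference of Hist3h2ba was 2.28 ± 0.33 in Usp22-KOA (adjusted p = 0.00034) and 0.56 ± 0.33 in Usp22-KOB (adjusted p = 0.214, not called). The value of Usp22-KOB was not stable, at 0.22 without Usp22-KOB sample 3 (adjusted p = 0.564) and 1.71 with the leukocyte covariate (adjusted p = 0.00788, called).

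Further H2B genes were low. Hist1h2bh had 2.92, 2.93 and 5.81 TPM in Usp22-KOA samples and 1.76, 3.12 and 4.4001 TPM in Usp22-KOB samples, against 0, 1.25 and 0.602 TPM in WT samples. All knockout samples lay above WT, and the calls were 1.62 ± 0.36 in Usp22-KOA (adjusted p = 0.00425, limma) and 1.36 ± 0.36 in Usp22-KOB (adjusted p = 0.0172). The second call was lost without Usp22-KOB sample 2 or 3 or WT sample 1 (adjusted p = 0.05 to 0.0581). Hist1h2bg, at 12.1 ± 1.86, 10.3 ± 4.81 and 11.4 ± 1.34 TPM in Usp22-KOA, Usp22-KOB and WT samples, was not called in any of the 4 comparisons, although without Usp22-KOB sample 2 it was called lower in Usp22-KOB than in WT (-0.53, adjusted p = 0.0336). Hist2h2be, named after its values were seen because it is the remaining cluster gene higher in each comparison with WT, had 5.79 ± 1.24 TPM in Usp22-KOA samples and 5.98 ± 0.2204 TPM in Usp22-KOB samples, against 4.06 ± 0.5197 TPM in WT samples. Its calls in the single knockouts were lost without any 1 of several samples (adjusted p = 0.0517 to 0.124), WT sample 2 among them. Chosen the same way, Hist1h2bn differed between the knockouts, higher in Usp22-KOA, by 0.92 ± 0.31 (adjusted p = 0.0315). This call was lost without Usp22-KOA sample 2 or 3 or Usp22-KOB sample 1 or 2 (adjusted p = 0.0849 to 0.0934).

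**Figure D3:**
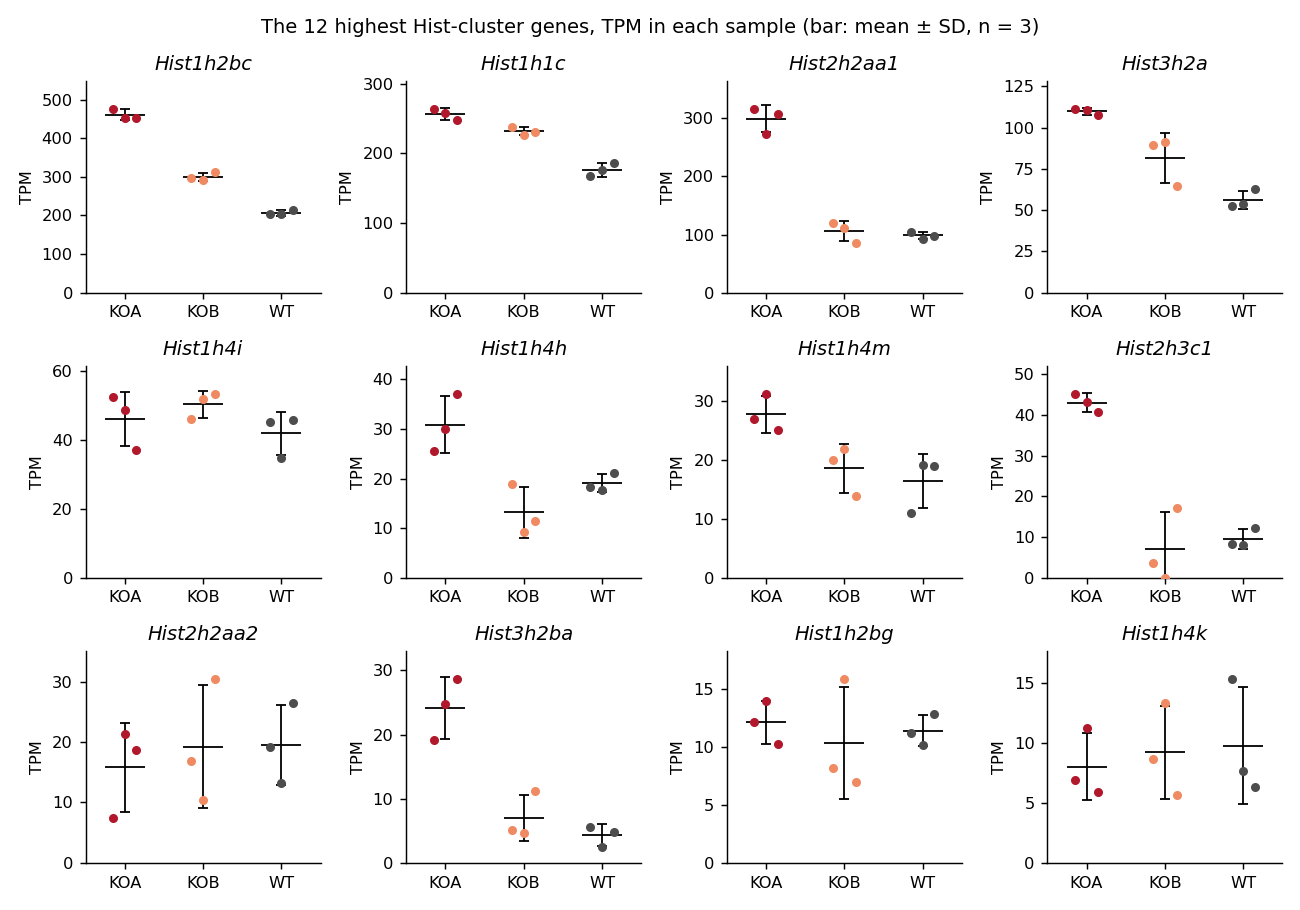
TPM (y axis, starting at 0) of the 12 cluster genes with the highest mean level in the 3 Usp22-KOA (KOA), 3 Usp22-KOB (KOB) and 3 WT samples. Points are samples and bars are the mean ± SD. Hist1h2bc lies at 453 to 477 TPM in Usp22-KOA samples and 293 to 312 TPM in Usp22-KOB samples, against 203 to 215 TPM in WT samples, while Hist1h4i, Hist1h2bg and Hist1h4k overlap across groups.

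Cluster H3 genes were low and were best read over copies. Hist2h3c1 lies 602 bases behind Hist2h2aa1 on the same strand, and its copy Hist2h3c2 lies 621 bases from Hist2h2aa2. Both copies have the same 408-base coding sequence and the same stem-loop. Hist2h3c1 was at 45.2, 43.2 and 40.7 TPM in Usp22-KOA samples and 3.66, 0 and 17.2 TPM in Usp22-KOB samples, against 8.24, 7.93 and 12.2 TPM in WT samples. Hist2h3c2 was at 0 in all Usp22-KOA and WT samples and at 10.2, 14.1 and 0 TPM in Usp22-KOB samples. The Usp22-KOB samples low in the first copy were thus the ones with a value in the second. Singly, Hist2h3c1 differed by 2.09 ± 0.82 in Usp22-KOA (adjusted p = 0.0555, limma, not called) and by -1.23 ± 0.82 in Usp22-KOB (adjusted p = 0.275, not called). Both values depended on the samples and settings: the first was called under 9 alternatives, without Usp22-KOB sample 2 or 3 among them (adjusted p = 0.00381 and 0.00637), and the second was -2.26 and called without Usp22-KOB sample 3 (adjusted p = 0.0126), -0.16 without Usp22-KOB sample 2 and 0.49 with the leukocyte covariate (adjusted p = 0.833 and 0.836). Hist2h3c2 was listed higher in Usp22-KOB, with an adjusted p of 0.047 that no longer passed 0.05 when any 1 of 8 samples was left out, each in turn (0.0578 to 0.156).

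Summed over the copies, which was chosen after seeing these values, the H3 pair came to 45.2, 43.2 and 40.7 TPM in Usp22-KOA samples and 13.9, 14.1 and 17.2 TPM in Usp22-KOB samples, against 8.24, 7.93 and 12.2 TPM in WT samples. The 3 groups were then separate. The sum differed by 2.09 ± 0.15 in Usp22-KOA (adjusted p = 4.69e-06, limma), by 0.63 ± 0.15 in Usp22-KOB (adjusted p = 0.0105) and by 1.46 ± 0.15 between the knockouts (adjusted p = 6.64e-05). For Usp22-KOB this turned round the sign of Hist2h3c1 alone. Among the other H3 genes, Hist1h3g had 3.34, 4.54 and 2.67 TPM in Usp22-KOA samples and 3.62, 5.82 and 3.13 TPM in Usp22-KOB samples, against 0, 0 and 2.77 TPM in WT samples. Here 2 of the 3 WT samples were at 0 and the third lay within the Usp22-KOA range, with differences of 1.52 ± 0.48 in Usp22-KOA (adjusted p = 0.0235, limma; 0.0532 and 0.0741 without sample 1 or 2 of that group) and, in Usp22-KOB, 1.703 ± 0.48 (adjusted p = 0.022). Both calls were lost without WT sample 1 or 2 (adjusted p = 0.0739 to 0.0837). Hist1h3i, named after its values were seen, was higher in Usp22-KOA by 1.16 ± 0.42 (adjusted p = 0.0416), a call lost without any 1 Usp22-KOA sample (adjusted p = 0.0639 to 0.112) and without WT sample 1 (0.63, adjusted p = 0.0807).

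**Figure D4:**
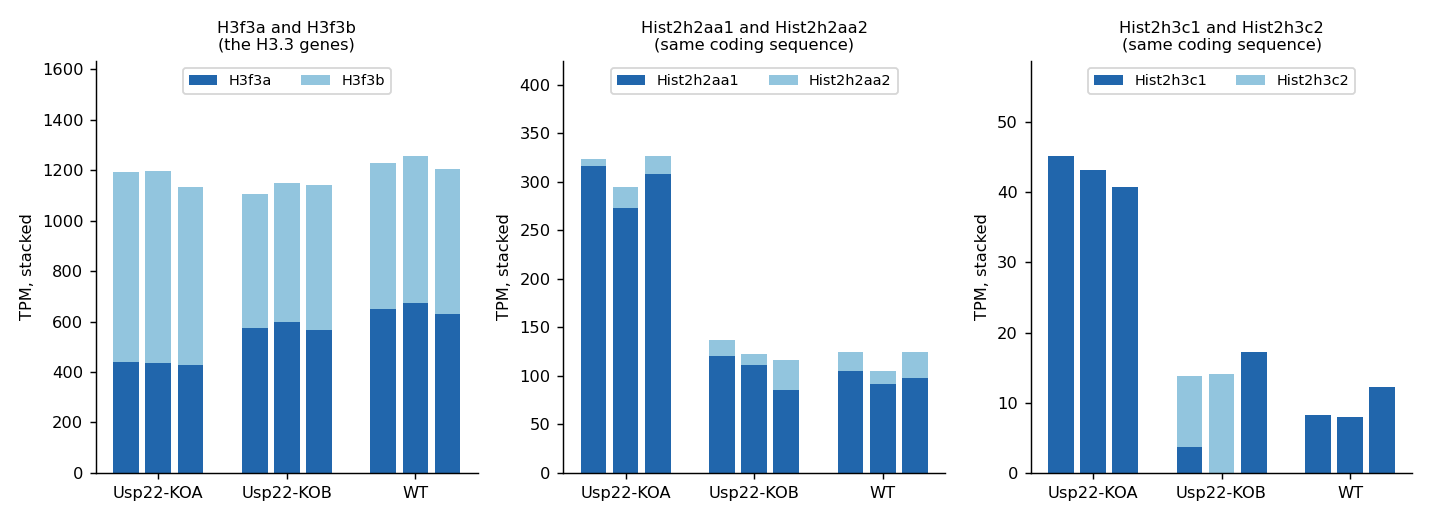
Stacked TPM (y axis, starting at 0) of 3 gene pairs, with 1 bar for each of the 3 Usp22-KOA, 3 Usp22-KOB and 3 WT samples. The H3.3 genes H3f3a and H3f3b come to 1132 to 1196 TPM in Usp22-KOA samples and 1105 to 1150.4 TPM in Usp22-KOB samples, against 1205 to 1256 TPM in WT samples, with H3f3b the larger part in Usp22-KOA. The Hist2h3c1 and Hist2h3c2 parts vary between Usp22-KOB samples while their sum stays between 13.9 and 17.2 TPM.

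In Usp22-KOA against WT, 2 of 12 H4 cluster genes tested were called, Hist1h4h and Hist1h4m, both higher. This is 16.7%, below the 29.4% of all genes tested that were higher. Between the knockouts Hist1h4h was called as well, 1 of 12 (8.33%), where 27.5% of all genes were higher. Hist1h4h was at 25.6, 29.95 and 37.1 TPM in Usp22-KOA samples and 18.96, 9.302 and 11.4 TPM in Usp22-KOB samples, against 18.3, 17.8 and 21.2 TPM in WT samples. Usp22-KOA samples were all highest and Usp22-KOB samples overlapped WT, with differences of 0.65 ± 0.23 in Usp22-KOA (adjusted p = 0.0348, limma), -0.55 ± 0.23 in Usp22-KOB (adjusted p = 0.0862, not called) and 1.21 ± 0.23 between the knockouts (adjusted p = 0.00208). The call in Usp22-KOA was lost without Usp22-KOA sample 2 or 3 or any 1 WT sample (adjusted p = 0.051 to 0.107), and without Usp22-KOB sample 1 the gene was called lower in Usp22-KOB, with a difference of -0.83 (adjusted p = 0.00721). Hist1h4m was at 26.9, 31.2 and 25.005 TPM in Usp22-KOA samples and 19.9, 21.9 and 13.9 TPM in Usp22-KOB samples, against 11.1, 19.1 and 18.97 TPM in WT samples. It was higher in Usp22-KOA by 0.76 ± 0.22 (adjusted p = 0.0168), a call lost without Usp22-KOA sample 2 (adjusted p = 0.0582) and with either covariate (adjusted p = 0.0566 and 0.0866). Its coding sequence is the same as that of Hist1h4n, which was at 0 in every library. Hist1h4i, at 46.1 ± 7.94, 50.5 ± 3.93 and 41.9 ± 6.197 TPM in Usp22-KOA, Usp22-KOB and WT samples, and Hist1h4k, at 8.06 ± 2.84, 9.23 ± 3.85 and 9.79 ± 4.88 TPM, were not called.

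Linker histones bind the DNA between nucleosomes, and the shares of their genes in polyadenylated RNA differed between groups. Cluster H1 genes enter these shares only as far as tailed transcripts of them exist, and protein was not measured. Hist1h1c, the gene of H1.2, was at 264, 258 and 248 TPM in Usp22-KOA samples and 238, 227 and 231 TPM in Usp22-KOB samples, against 167, 177 and 187 TPM in WT samples. All knockout samples were above WT. It rose by 0.54 ± 0.052 in Usp22-KOA (adjusted p = 2.92e-05, limma) and by 0.39 ± 0.052 in Usp22-KOB (adjusted p = 0.000606). H1fx, the gene of the replication-independent linker histone H1X, had the largest rise among the 9 tested genes outside the clusters. It was at 66.6, 60.8 and 58.6 TPM in Usp22-KOA samples and 40.4, 44.3 and 46.6 TPM in Usp22-KOB samples, against 15.9, 22.9 and 17.4 TPM in WT samples. The groups were fully separate, with differences of 1.69 ± 0.12 in Usp22-KOA (adjusted p = 5.2e-06), 1.195 ± 0.12 in Usp22-KOB (adjusted p = 0.000147) and 0.49 ± 0.12 between the knockouts (adjusted p = 0.00893).

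H1f0, the gene of a linker histone that is known to accumulate in cells that have stopped dividing, went the other way in 1 knockout. Its levels were 161, 169 and 173 TPM in Usp22-KOA samples and 217, 227 and 267 TPM in Usp22-KOB samples, against 229, 277 and 241 TPM in WT samples. Usp22-KOA samples were all lowest, and Usp22-KOB samples overlapped WT. It fell in Usp22-KOA, with a log2 difference of -0.56 ± 0.091 (adjusted p = 0.00066, limma), while Usp22-KOB differed by -0.072 ± 0.091 (adjusted p = 0.574, not called) and the knockouts differed by -0.49 ± 0.091 (adjusted p = 0.00189). Of the TPM of the 8 linker genes, H1f0 held 33.5% ± 1.55 in Usp22-KOA samples and 45.6% ± 2.77 in Usp22-KOB samples, against 54.7% ± 1.95 in WT samples. Hist1h1c held 51.3% ± 1.27, 44.8% ± 2.64 and 39.01% ± 2.45, and H1fx 12.4% ± 0.723, 8.43% ± 0.372 and 4.102% ± 0.524, in Usp22-KOA, Usp22-KOB and WT samples. The total of the 8 genes was 500.1 ± 4.21 TPM in Usp22-KOA samples and 519 ± 26.1 TPM in Usp22-KOB samples, against 454 ± 33.8 TPM in WT samples. Hist1h1d, a low linker gene, was at 5.701, 6.28 and 5.47 TPM in Usp22-KOA samples and 2.96, 1.301 and 2.19 TPM in Usp22-KOB samples, against 3.64, 4.85 and 5.36 TPM in WT samples. It was lower in Usp22-KOB, with a difference of -0.86 ± 0.20 (adjusted p = 0.00995), and was the 1 cluster gene called lower than WT in any comparison. With the leukocyte covariate it was not called (-0.89, adjusted p = 0.132).

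**Figure D5:**
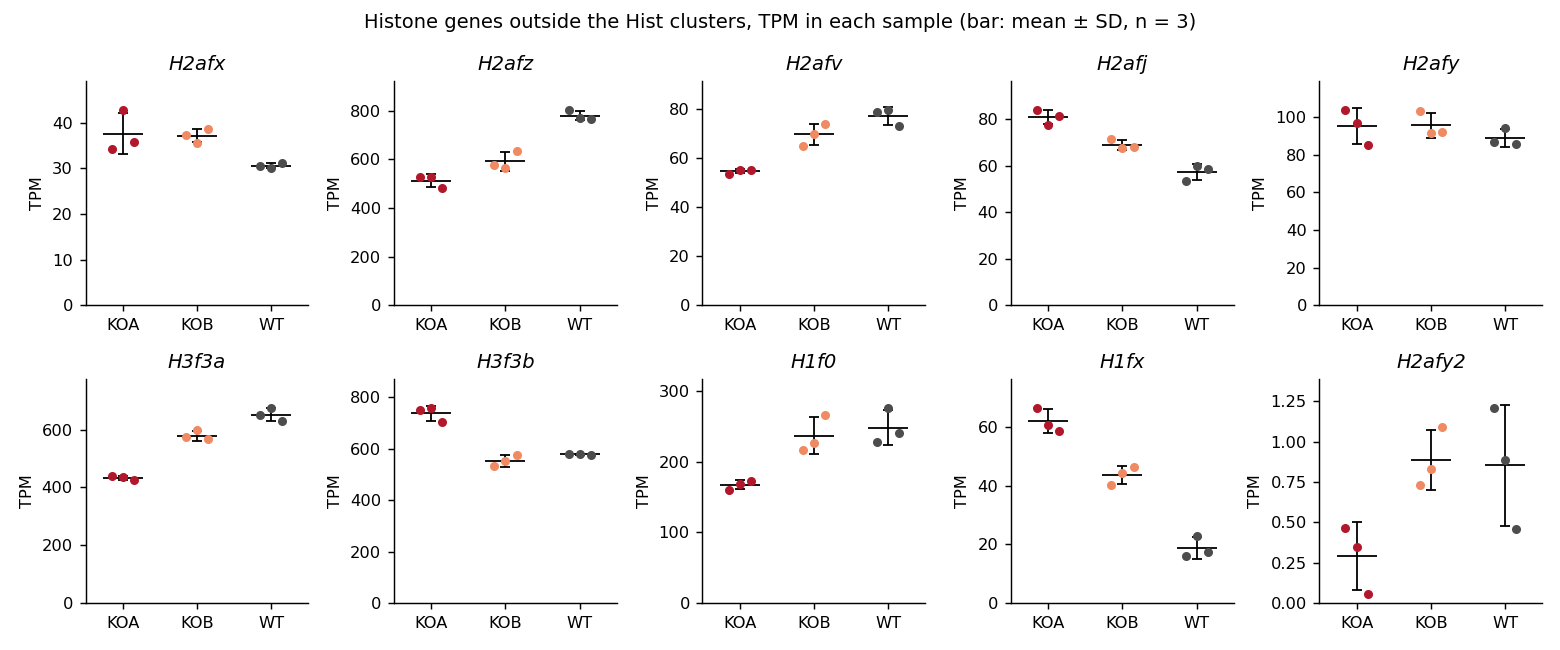
TPM (y axis, starting at 0) of the 10 histone genes outside the clusters in the 3 Usp22-KOA (KOA), 3 Usp22-KOB (KOB) and 3 WT samples. Points are samples and bars are the mean ± SD. H2afz lies at 484 to 529 TPM in Usp22-KOA samples and 564 to 635 TPM in Usp22-KOB samples, against 768 to 803 TPM in WT samples, and H3f3a and H3f3b run in opposite directions in Usp22-KOA.

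H3f3a and H3f3b encode the same protein, the replacement histone H3.3, from coding sequences that differ at 95 of 408 bases, so reads can be told apart. H3f3a was at 439.8, 437 and 427 TPM in Usp22-KOA samples and 574, 599 and 566 TPM in Usp22-KOB samples, against 650.3, 675 and 630.2 TPM in WT samples. All samples of each group were apart, with Usp22-KOA lowest. H3f3b was at 753, 759 and 705 TPM in Usp22-KOA samples and 531, 551 and 576 TPM in Usp22-KOB samples, against 579, 581 and 574 TPM in WT samples. Usp22-KOA was highest, and Usp22-KOB overlapped WT. In Usp22-KOA, H3f3a differed by -0.58 ± 0.042 (adjusted p = 5.11e-06, limma) and H3f3b by 0.35 ± 0.046 (adjusted p = 0.000167). In Usp22-KOB, H3f3a differed by -0.17 ± 0.042 (adjusted p = 0.0136) and H3f3b by -0.065 ± 0.046 (adjusted p = 0.294, not called). Both genes differed between the knockouts, H3f3a by -0.41 ± 0.042 (adjusted p = 6.44e-05) and H3f3b by 0.42 ± 0.046 (adjusted p = 9.3e-05).

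The total of the H3.3 genes was somewhat lower in both knockouts, and its source shifted in Usp22-KOA. Every knockout sample (1105 to 1196 TPM) lay below every WT sample (1205 to 1256 TPM). This gap between samples is narrow and holds for the TPM values as given, not under every scaling. Under other scalings or without 1 sample, the mean total ranged over 92.8% to 97.1% of WT in Usp22-KOA and 90.6% to 93.2% in Usp22-KOB. The total was 1173 ± 35.9 TPM in Usp22-KOA samples and 1132 ± 24.1 TPM in Usp22-KOB samples, against 1230.02 ± 25.9 TPM in WT samples, which is 95.4% and 92.1% of WT. H3f3b supplied 63.1, 63.4 and 62.3% of it in Usp22-KOA samples and 48.1, 47.9 and 50.4% in Usp22-KOB samples, against 47.1, 46.2 and 47.7% in WT samples. The Usp22-KOA shares were clear of all others. Promoters of the pair are printed because the genes went in opposite directions in Usp22-KOA. They lie at chr1:180813556-180813855 and chr11:116024455-116024754, both on the minus strand of GRCm38.p6 (RefSeq), and capitals mark the motifs given above.
H3f3a: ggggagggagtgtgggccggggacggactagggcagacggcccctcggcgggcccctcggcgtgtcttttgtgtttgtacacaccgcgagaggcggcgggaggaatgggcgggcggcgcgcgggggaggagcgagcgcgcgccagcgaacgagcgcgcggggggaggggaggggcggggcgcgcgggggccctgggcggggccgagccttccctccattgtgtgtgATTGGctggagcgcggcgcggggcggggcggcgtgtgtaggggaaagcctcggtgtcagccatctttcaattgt
H3f3b: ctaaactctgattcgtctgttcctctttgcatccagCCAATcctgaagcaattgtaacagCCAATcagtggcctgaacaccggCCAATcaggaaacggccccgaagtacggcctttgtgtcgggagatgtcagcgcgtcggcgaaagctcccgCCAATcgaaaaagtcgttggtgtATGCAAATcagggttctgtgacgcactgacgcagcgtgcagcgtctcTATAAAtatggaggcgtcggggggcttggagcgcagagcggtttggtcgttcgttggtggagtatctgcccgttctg
The H3f3a window holds 1 CCAAT box, and the H3f3b window 1 TATA box, 4 CCAAT boxes and 1 octamer.

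H2A.Z, a replacement H2A that marks promoters, is encoded by H2afz and, as a close second form, by H2afv. H2afz was at 529, 527 and 484 TPM in Usp22-KOA samples and 577, 564 and 635 TPM in Usp22-KOB samples, against 803, 772 and 768 TPM in WT samples. All knockout samples were below WT, and Usp22-KOA was lowest. It fell in both, with differences of -0.605 ± 0.057 in Usp22-KOA (adjusted p = 2.48e-05, limma), -0.400 ± 0.057 in Usp22-KOB (adjusted p = 0.000886) and -0.21 ± 0.057 between them (adjusted p = 0.0151, or 0.0512 without Usp22-KOA sample 3). H2afv was at 53.6, 55.1 and 54.9 TPM in Usp22-KOA samples and 64.97, 69.8 and 73.7 TPM in Usp22-KOB samples, against 78.7, 79.3 and 72.8 TPM in WT samples. Usp22-KOA was again lowest without overlap, and Usp22-KOB overlapped WT. The difference was -0.49 ± 0.060 in Usp22-KOA (adjusted p = 0.000126) and -0.15 ± 0.060 in Usp22-KOB (adjusted p = 0.0872, not called). Without Usp22-KOB sample 3, or under 3 other scalings, it was called lower in Usp22-KOB as well (-0.13 to -0.19, adjusted p = 0.0205 to 0.0459). Together the pair came to 66.2% of WT in Usp22-KOA samples and 77.2% in Usp22-KOB. H2afz kept a like share of the pair, 90.4% ± 0.516 in Usp22-KOA samples and 89.5% ± 0.452 in Usp22-KOB samples, against 91.03% ± 0.335 in WT samples.

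H2afj, whose product H2A.J is known to accumulate in senescent human fibroblasts, was at 83.96, 77.7 and 81.5 TPM in Usp22-KOA samples and 71.7, 67.5 and 68.05 TPM in Usp22-KOB samples, against 53.5, 59.8 and 58.8 TPM in WT samples. Knockout samples were all above WT, with differences of 0.49 ± 0.059 in Usp22-KOA (adjusted p = 0.000104, limma) and 0.27 ± 0.059 in Usp22-KOB (adjusted p = 0.00767), the second lost with the leukocyte covariate (adjusted p = 0.196). H2afx, the gene of H2A.X, which is phosphorylated around DNA breaks, was at 34.3, 42.8 and 35.9 TPM in Usp22-KOA samples and 37.2, 35.7 and 38.6 TPM in Usp22-KOB samples, against 30.5, 30.1 and 31.2 TPM in WT samples. It was higher in both, by 0.28 ± 0.082 in Usp22-KOA (adjusted p = 0.015) and 0.27 ± 0.082 in Usp22-KOB (adjusted p = 0.0288). The call in Usp22-KOB was lost without any 1 of the Usp22-KOB or WT samples (adjusted p = 0.0514 to 0.0784). Between the knockouts it differed by 0.013 ± 0.082 (adjusted p = 0.907). H2afy, the gene of macroH2A1, a large H2A with an added macro domain, had 95.4 ± 9.35 TPM in Usp22-KOA samples and 95.6 ± 6.54 TPM in Usp22-KOB samples, against 88.9 ± 4.61 TPM in WT samples, and was not called in any comparison. H2afy2, the gene of macroH2A2, was at 0.464, 0.349 and 0.0541 TPM in Usp22-KOA samples and 0.734, 0.831 and 1.09 TPM in Usp22-KOB samples, against 1.21, 0.887 and 0.461 TPM in WT samples, and was too low to be tested.

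The remaining cluster genes were low. Of the 69, 58 had a mean under 10 TPM and 18 were not tested. Over the whole set, 37 genes were at 0 in at least 1 library and 4 were at 0 in all 9: Hist1h2aa, Hist1h2ba, Hist1h4n and Hist3h2bb-ps. Their sequences are alike, with a median of 98.7% coding identity between a cluster gene and its closest relative in the set (60 genes with a relative of equal coding length), 19 genes at 99% or more and 10 at 100%. Levels of single low copies are therefore uncertain, and so are changes between them.

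Promoter motifs were counted by family, as a description without a test. RefSeq held a promoter for 70 of the 79 genes, 61 of them in the clusters. Motifs were searched on both strands in 300 bases, and none of the 3 letter strings contains another. A TATA box (TATAAA) was found in 35 of the 61 cluster promoters, in 1 of 9 outside the clusters and in 13.6% of all 32851 promoters. A CCAAT box (CCAAT) was in 52 of 61, in 6 of 9 and in 37.4% of all. The 9 cluster promoters without one were all H4 promoters, of which 3 of 12 held it. The octamer (ATTTGCAT), known as the Oct-1 site of H2B promoters, was in 7 of 17 H2A and 7 of 16 H2B promoters, in none of the H1, H3 or H4 promoters and in 1.74% of all. Outside the clusters the 1 promoter with an octamer was that of H3f3b, and the 1 with a TATA box was also that of H3f3b.

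Genes that act on histones and histone RNA were counted beside the set. Of 37 genes of DNA replication, all tested, 6 were higher and 11 lower over both knockouts, 6 and 12 in the comparison of Usp22-KOA with WT, and 6 and 4 in that of Usp22-KOB, with medians of -0.00018, -0.048 and -0.0029. This is 16.2% and 29.7%, 16.2% and 32.4%, and 16.2% and 10.8%, where 25.9% and 24.1%, 29.4% and 26.9%, and 18.7% and 18.4% of all genes tested were higher and lower. Their summed level spanned 908 to 1011 TPM in Usp22-KOA samples and 996 to 1060 TPM in Usp22-KOB samples, against 960 to 1026 TPM in WT samples, so the groups overlapped. Whether DNA replication contributes to the histone differences was not tested, beyond the covariate fit below. Rrm2, the small subunit of ribonucleotide reductase, was at 70.3 ± 3.14 TPM in Usp22-KOA samples and 51.2 ± 2.401 TPM in Usp22-KOB samples, against 33.5 ± 2.39 TPM in WT samples, and rose by 0.82 ± 0.059 over both (adjusted p = 7.55e-06, limma). Its partner Rrm1 fell to 19.6 ± 1.54 and 22.7 ± 1.46 TPM in Usp22-KOA samples and Usp22-KOB samples, against 32.2 ± 1.001 TPM in WT samples. The replicative helicase subunit Mcm6, with a difference of -0.54 ± 0.065 (adjusted p = 0.000163), and the DNA ligase Lig1, with -0.52 ± 0.063 (adjusted p = 0.000163), were also lower. With the replication level as a covariate, 18 histone genes were called over both knockouts, 17 in Usp22-KOA samples and 14 in Usp22-KOB, where 17, 20 and 13 were called without it. Between the knockouts it called 13, where 18 were called without it. The share of all genes called with this covariate was not determined, so these counts do not set histone genes apart from other genes. The calls lost were those of Hist1h3g, Hist1h3i, Hist1h4h and Hist1h4m in Usp22-KOA against WT, and of H2afj, H2afz, Hist1h1c, Hist1h2ac, Hist1h2bn and Hist3h2a between the knockouts.

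Of 18 mitosis genes, 3 were higher and 4 lower over both knockouts, 5 and 10 in the comparison of Usp22-KOA with WT, and 5 and 1 in that of Usp22-KOB. Their shares were 16.7% and 22.2% over both, beside 25.9% and 24.1% of all genes, 27.8% and 55.6% in Usp22-KOA, beside 29.4% and 26.9%, and 27.8% and 5.56% in Usp22-KOB, beside 18.7% and 18.4%. The mitotic kinase Aurka was higher, with a difference of 0.39 ± 0.060 (adjusted p = 0.000711, limma), and the kinase Plk1 lower, with -0.58 ± 0.094 (adjusted p = 0.000889). Mki67, a marker of cycling cells, was at 16.2 ± 0.672 TPM in Usp22-KOA samples and 29.3 ± 2.499 TPM in Usp22-KOB samples, against 27.4 ± 3.18 TPM in WT samples. The spindle checkpoint kinase Bub1b was at 15.97 ± 0.796 TPM in Usp22-KOA samples and 29.05 ± 1.91 TPM in Usp22-KOB samples, against 25.7 ± 1.98 TPM in WT samples. In Usp22-KOA both were lower than in WT, with adjusted p-values of 0.000184 and 0.00011. Neither was called in Usp22-KOB.

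Among 18 tested genes that transcribe, process or degrade replicative histone RNA, 4 were higher and 4 lower over both knockouts, 4 and 5 in the comparison of Usp22-KOA with WT, and 2 and none in that of Usp22-KOB. These are 22.2% and 22.2% over both, 22.2% and 27.8% for Usp22-KOA against WT, and 11.1% and 0% for Usp22-KOB against WT, so that the shares over both knockouts and in Usp22-KOA lie near those of all genes (25.9% and 24.1%, 29.4% and 26.9%), while in Usp22-KOB 18.7% and 18.4% of all genes were called. Sympk, the scaffold of the complex that cleaves histone pre-mRNA and places poly(A) ends, was at 40.2 ± 1.26 TPM in Usp22-KOA samples and 61.05 ± 3.59 TPM in Usp22-KOB samples, against 65.6 ± 2.56 TPM in WT samples. It was lower in Usp22-KOA, with a difference of -0.69 ± 0.059 (adjusted p = 1.38e-05, limma) and differed by -0.103 ± 0.059 in Usp22-KOB (adjusted p = 0.208, not called). Lsm10, a protein of the U7 particle that binds histone pre-mRNA, was higher in both, by 0.47 ± 0.13 (adjusted p = 0.0117) and 0.54 ± 0.13 (adjusted p = 0.0105). The uridylyltransferase gene Zcchc6 and the helicase gene Upf1, both of histone mRNA decay, were higher over both knockouts by 0.26 ± 0.073 (adjusted p = 0.0167) and 0.19 ± 0.054 (adjusted p = 0.0184).

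Of 39 histone chaperone and deposition genes, 6 were higher and 10 lower over both knockouts, 9 and 12 in the comparison of Usp22-KOA with WT, and 4 and 9 in that of Usp22-KOB, with a median of -0.0035 over both. The shares were 15.4% and 25.6% over both, 23.1% and 30.8% for Usp22-KOA against WT, and 10.3% and 23.1% for Usp22-KOB against WT, beside 25.9% and 24.1%, 29.4% and 26.9%, and 18.7% and 18.4% of all genes. The 4 named here, by smallest adjusted p, were all lower. Srcap, the ATPase that places H2A.Z, was at 17.2 ± 1.47 TPM in Usp22-KOA samples and 17.9 ± 1.47 TPM in Usp22-KOB samples, against 28.4 ± 2.64 TPM in WT samples, a difference of -0.66 ± 0.083 (adjusted p = 0.000193, limma). Vps72, the subunit that binds H2A.Z, differed by -0.47 ± 0.054 (adjusted p = 0.000112), and the helicase subunit Ruvbl2 by -0.57 ± 0.058 (adjusted p = 5.46e-05). Anp32e, a chaperone that removes H2A.Z, was at 46.7 ± 1.63 TPM in Usp22-KOA samples and 51.9 ± 2.31 TPM in Usp22-KOB samples, against 68.5 ± 5.07 TPM in WT samples (adjusted p = 0.000172). Of 8 further histone genes in the table, 5 were at 0 in every library, and the 1 tested was Cenpa, the centromeric H3. Cenpa was at 48.6 ± 6.67 TPM in Usp22-KOA samples and 71.4 ± 2.37 TPM in Usp22-KOB samples, against 72.2 ± 5.75 TPM in WT samples, and was lower in Usp22-KOA, with a difference of -0.57 ± 0.099 (adjusted p = 0.00105).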

How the data were processed

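RNA of 9 samples (3 Usp22-KOA, 3 Usp22-KOB, 3 WT) was measured. The deposited table holds TPM per gene, made by the authors from reads of poly(A)-selected libraries. Salmon, DESeq2 and build mm10 are named in the submitters' processing notes, without roles or versions. Salmon is known to share ambiguous reads between similar transcripts, which affects near-identical histone copies.

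From these values log2(TPM + 1) was computed. Genes averaging 1 TPM or more across samples (13843 of 24493) were fitted with limma 3.58.1 (R 4.3.3; trend on, 1 model of the 3 groups), giving 4 comparisons, with Benjamini-Hochberg adjustment over all genes fitted and a threshold of 0.05. The procedure was tested on simulated data. Named were the 10 genes outside the clusters, the 12 highest cluster genes, for each comparison the 3 largest called cluster differences in each direction, and up to 4 genes of each other list by adjusted p. The members and lists were chosen with earlier results of these data known. Annotation and stem-loops were read from GENCODE M21 (GRCm38), promoters from RefSeq (GRCm38.p6). Figures were drawn with matplotlib. The alternatives tried were other pseudocounts, filters, scalings, limma without trend, a replicate block, subsets of groups, covariates and leaving out each sample. The labels give no batch.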

Additional observations from a re-analysis of the deposited data

Results flagged for a closer look

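For 18 of the 60 histone genes tested the change from WT differed between the 2 knockouts, by the limma comparison of Usp22-KOA with Usp22-KOB (adjusted p under 0.05). Of the 60, 21.7% were higher and 8.33% lower in Usp22-KOA, where 27.5% and 24.2% of all genes tested were. Such differences were thus less frequent among histone genes than among all genes. Values are differences in log2(TPM + 1), Usp22-KOA minus Usp22-KOB. Higher in Usp22-KOA were Hist2h3c1 (3.323), Hist3h2ba (1.718), Hist2h2aa1 (1.499), Hist1h4h (1.209), Hist1h1d (1.147), Hist1h2ac (0.9414), Hist1h2bn (0.9193), Hist1h2bc (0.6171), H1fx (0.493), Hist3h2a (0.4413), H3f3b (0.4183), H2afj (0.2269) and Hist1h1c (0.1442). Lower in Usp22-KOA were Hist2h3c2 (-2.467), H1f0 (-0.4922), H3f3a (-0.415), H2afv (-0.3423) and H2afz (-0.2054). The values of Hist2h3c1 and Hist2h3c2 rest on how reads were shared between 2 genes of the same coding sequence. What sets the knockouts apart was not tested.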

How the results depend on the processing

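The number of histone genes called stayed within 1.5 times of 17 over both knockouts, 20 in Usp22-KOA against WT, 13 in Usp22-KOB against WT and 18 between the knockouts under all 22 settings, except 1. With the leukocyte marker level as a covariate, 6 genes were called in Usp22-KOB against WT (4 higher, 2 lower), and the cause was not tested. Shares of all genes called were determined for the main fit only, so counts under other settings have no such share beside them. Leaving out 1 sample at a time gave 16 to 19, 17 to 22, 9 to 14 and 14 to 20 calls. Of 1486 alternative values of the 69 called results, 1349 kept direction and call and 137 lost the call. Of the 48 results not called, 17 gained a call under at least 1 alternative. The calls lost most often were Hist1h1c between the knockouts and Hist2h3c2 in Usp22-KOB against WT (13 settings each), Hist1h3i in Usp22-KOA (12), Hist1h2ac and Hist2h3c2 between the knockouts and Hist2h2be in Usp22-KOA (10 each). Over both knockouts, H3f3b was not called under quantile normalization (0.067, adjusted p = 0.17), with the leukocyte covariate, or without WT sample 3 (adjusted p = 0.0515). No called result changed sign under any alternative, but 30 of the 48 results not called did under at least 1, Hist2h2aa1, H1f0 and Hist1h4m in Usp22-KOB and H2afy in all 4 comparisons among them. In 1 of these the other sign was called: Hist2h3c1 in Usp22-KOB against WT was 0.6335 once its copy was added, since the copy holds the value in 2 samples. Same-numbered samples deviated together in 2 of 9 pairs (r over 0.1, range -0.125 to 0.276), so the numbers were not taken to pair them. With a replicate block 18, 21, 12 and 19 genes were called. The fit on only the groups compared is the same as the full one for both knockouts and was not repeated. Depth is unknown, which limits statements on genes listed at 0.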
